A study of Bos taurus with 15 samples.

Results

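The antioxidant and glutathione enzymes described here are 47 genes of the 32671 entries in the deposited table of bovine endometrium. They were chosen by symbol and not by any measured value: the numbered GPX, PRDX and SOD genes, the cytosolic and microsomal glutathione S-transferases (GSTA, GSTK, GSTM, GSTO, GSTP, GSTT, GSTZ and MGST), and CAT, TXN, TXN2, TXNRD1, TXNRD2, TXNRD3, GSR, GSS, GCLC, GCLM, NQO1 and HMOX1. Poly(A) RNA was sequenced from endometrial biopsies of 15 beef heifers on day 14 of pregnancy, 5 classified as High-fertile, 5 as Sub-fertile and 5 as Infertile. The labels do not say how a heifer was assigned to a class, nor whether a conceptus was recovered from it.

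The same protocol is given for all 15 heifers. Estrus was synchronised with prostaglandin F (PGF), gonadotropin-releasing hormone (GnRH), a progesterone-releasing vaginal insert (CIDR) and an injection of estradiol with progesterone. Heifers without estrus by the target day were given further GnRH and estradiol benzoate. The labels do not say which heifers these were, so hormone treatment may have differed between heifers and classes. An embryo produced in vivo was placed on day 7 in the horn on the side of the corpus luteum, and the biopsy was cut from that horn with biopsy forceps once a uterine flush was complete. There was no group without an embryo, so every comparison is between classes of recipients. A biopsy of this kind mixes luminal and glandular epithelium, stroma, vessels and leukocytes.

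Superoxide dismutases turn superoxide into hydrogen peroxide, which catalase, the glutathione peroxidases and the peroxiredoxins break down. The peroxidases draw electrons from glutathione or thioredoxin, and glutathione reductase and the thioredoxin reductases restore these carriers with NADPH. Glutathione S-transferases join glutathione to reactive lipids and foreign compounds. In early pregnancy the progesterone-primed endometrium secretes the nutrients on which the elongating conceptus depends, and its peroxide-removing enzymes are part of the housekeeping of epithelium and stroma.

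The libraries held 38017136 to 62858724 counts, and the 47 genes took 0.254 to 0.356% of them. At this depth 3 counts correspond to 0.0492 to 0.0783 CPM (read counts scaled to a common library size by TMM), and of the members only GPX5, GSTA5 and GSTO2 had libraries at or below that upper value. Clustering on 363 tested entries annotated as pseudogene or rRNA, cut at 3 groups, gave library sets of 8, 5 and 2. The number of groups was imposed, and the grouping was made from the data without the classes. The 5-library set consisted of 3 Sub-fertile libraries (replicates 1, 2, 5) with 2 Infertile ones (replicates 3, 5) and no High-fertile library. The 2-library set held High-fertile replicate 1 and Infertile replicate 2, in which those genes took 1.09 to 1.21% of counts against 2.39 to 3.28% in the other 13. The 8-library set took in 4 libraries of the High-fertile class and 2 of each other class. The labels give no batch, and for every member at an unadjusted p under 0.05 between classes the difference is given also with the set as a term in the model. Uterine identity genes (HOXA10, HOXA11, MSX1 and 5 others) summed to 354 to 832 CPM, gland markers to 35.4 to 101 CPM and red blood cell markers to 1.13 to 9.12 CPM. Within the last 2 lists PAEP, of the gland list, and the red cell membrane protein SLC4A1 were at 0 in all 15 libraries. FOXA2 and CXCL14 of the gland list and the globin HBB were detected in each.

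By length-corrected level (FPKM, as deposited), the peroxiredoxins led. PRDX6, a cytosolic peroxiredoxin with a single active cysteine that also handles oxidised phospholipids, had the highest mean at 231 ± 149.6 FPKM (SD, n = 15 heifers), over a range of 122 to 670.1. PRDX1, the cytosolic thioredoxin peroxidase, followed at 200.9 ± 36.9, then the pi-class transferase GSTP1 at 138 ± 38.8, the cytosolic PRDX2 at 131 ± 27.0 and PRDX5, found in mitochondria, peroxisomes and cytosol, at 126 ± 35.8. The ranges of neighbours in this order overlapped. GSTM3 (121 FPKM), TXN (116), CAT (94.9), GPX1 (90.8) and SOD1 (88.0) came next.

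Within each family 1 or a few genes carried most of the level. Among the glutathione peroxidases GPX1, the cytosolic selenoenzyme, and GPX4, which reduces lipid hydroperoxides within membranes, stood at 90.8 and 59.0 FPKM. The endoplasmic reticulum forms GPX8 and GPX7 had 36.9 and 13.9 FPKM. GPX2 and the secreted GPX3 had 7.83 and 4.29, while GPX6 and the epididymal form GPX5 had 1.11 and 0.465. The transferases ran from GSTP1 down to GSTA5 at 0.451 FPKM and GSTO2 at 0.0567. GSTO2, at 0.0228 to 0.255 CPM, did not pass the filter on low counts, which left 46 of the 47 members for testing.

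**Figure D1:**
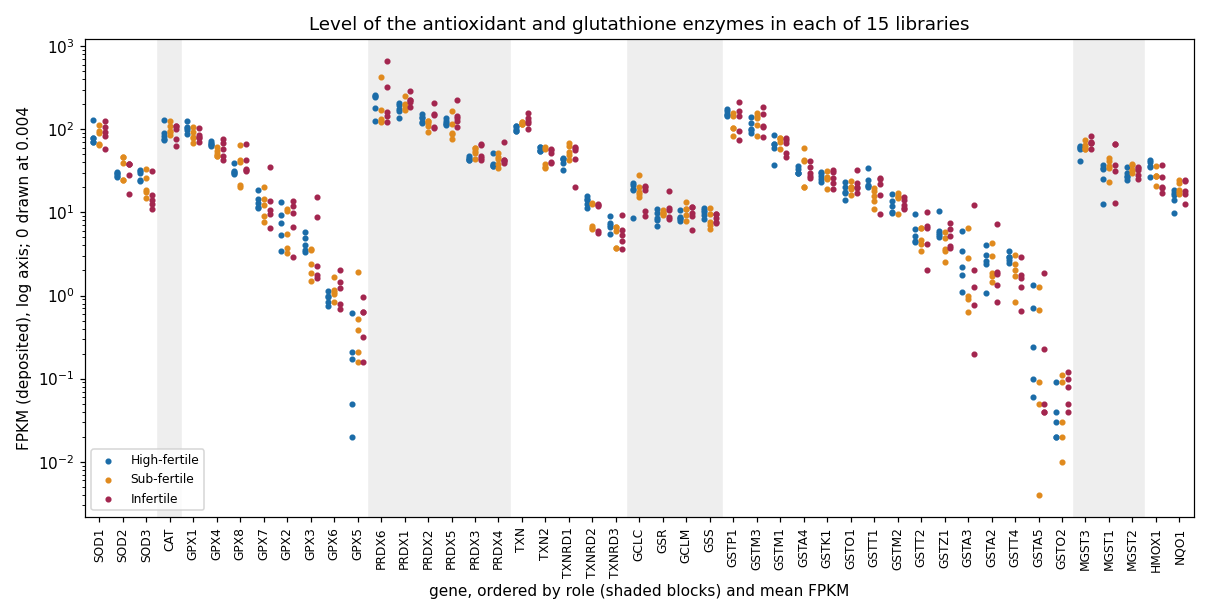
Deposited FPKM on a log axis for each of the 47 genes, ordered by role in alternating shaded blocks and by mean within a role, with 1 point per library and colours for the 3 classes. The peroxiredoxin block holds PRDX6, PRDX1, PRDX2 and PRDX5 above 70 FPKM in every library, and the lowest points belong to GPX5, GSTA5 and GSTO2.

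No member differed between classes at an adjusted p under 0.05 in edgeR's quasi-likelihood test, and neither did any other gene (0 of 19962 tested, 0% in each of the 3 comparisons and in the test of any difference). DESeq2 and limma-voom also called 0 members, although DESeq2 called 19, 34 and 11 of all genes in Sub-fertile against High-fertile, Infertile against High-fertile and Infertile against Sub-fertile, and limma-voom 0, 1 and 1. The lowest adjusted p of any gene in edgeR was 0.121, 0.435 and 0.998 in those comparisons. The values that follow are therefore descriptions, and the first 2 comparisons share their High-fertile libraries. RNA from a biopsy also cannot tell fewer cells of a type apart from less RNA per cell.

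At an unadjusted p under 0.05 in edgeR, 4 of 46 members were lower and 0 higher in Sub-fertile than in High-fertile heifers, against 13.7% of all genes (7.14% lower and 6.58% higher). They were GPX1, GPX4, GSTT1 and GSTZ1. In Infertile against High-fertile 7 of 46 members passed that mark, against 11% of all genes (7.14% higher and 3.89% lower): MGST3, PRDX1 and TXN were higher, and GPX1, GSTT4, HMOX1 and SOD3 lower. In Infertile against Sub-fertile 2 members passed it, GPX3 and PRDX5, both higher, against 2.63% of all genes. HMOX1 and TXN passed it in the test of any difference among the 3 classes, where 8.42% of genes did. The members' share was 8.70%, 15.2% and 4.35% in the 3 comparisons and 4.35% in the test of any difference. It rested on 2 to 7 of 46 members each time and was not tested against the background. By value it lay below the background in Sub-fertile against High-fertile and in the test of any difference, and above it in both comparisons of Infertile heifers. That order depended on the model: with the set as a term 3 members passed in Infertile against High-fertile, below the 7.66% of all genes, and within the 8-library set 8 passed in Sub-fertile against High-fertile, above the 7.43% of all genes. No overlap between classes was seen for 3 members in Sub-fertile against High-fertile (5.07% of all genes), 0 in Infertile against High-fertile (2.22%) and 0 in Infertile against Sub-fertile (0.205%). Of all genes, 1.91% were higher and 0.721% lower at that mark in Infertile against Sub-fertile, where 0 members were lower.

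The direction of the whole group was mixed. Between Sub-fertile and High-fertile heifers 22 members were higher and 24 lower in value, with a median log2 fold change of -0.05 against 0.01 over all genes. The count was 30 higher and 16 lower for Infertile against High-fertile (median 0.12, all genes 0.04) and 31 higher and 15 lower for Infertile against Sub-fertile (median 0.11, all genes 0.03). With the library set in the model these medians were -0.04, -0.0014 and 0.03. Leaving out 1 library gave 0.073 to 0.15 for Infertile against High-fertile, with values more than 1.5 times lower without High-fertile replicate 1 or 2 or Infertile replicate 1 or 5. It gave 0.025 to 0.14 for Infertile against Sub-fertile, lowest without Infertile replicate 2, and more than 1.5 times lower also without Infertile replicate 5 or Sub-fertile replicate 1. Between Sub-fertile and High-fertile the median turned positive without High-fertile replicate 1, 3 or 5 or Sub-fertile replicate 2, 3 or 4. The members took 0.274 ± 0.0138% of counts in High-fertile, 0.278 ± 0.0300% in Sub-fertile and 0.2996 ± 0.0339% in Infertile libraries (SD, n = 5 each), and these ranges overlapped.

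**Figure D2:**
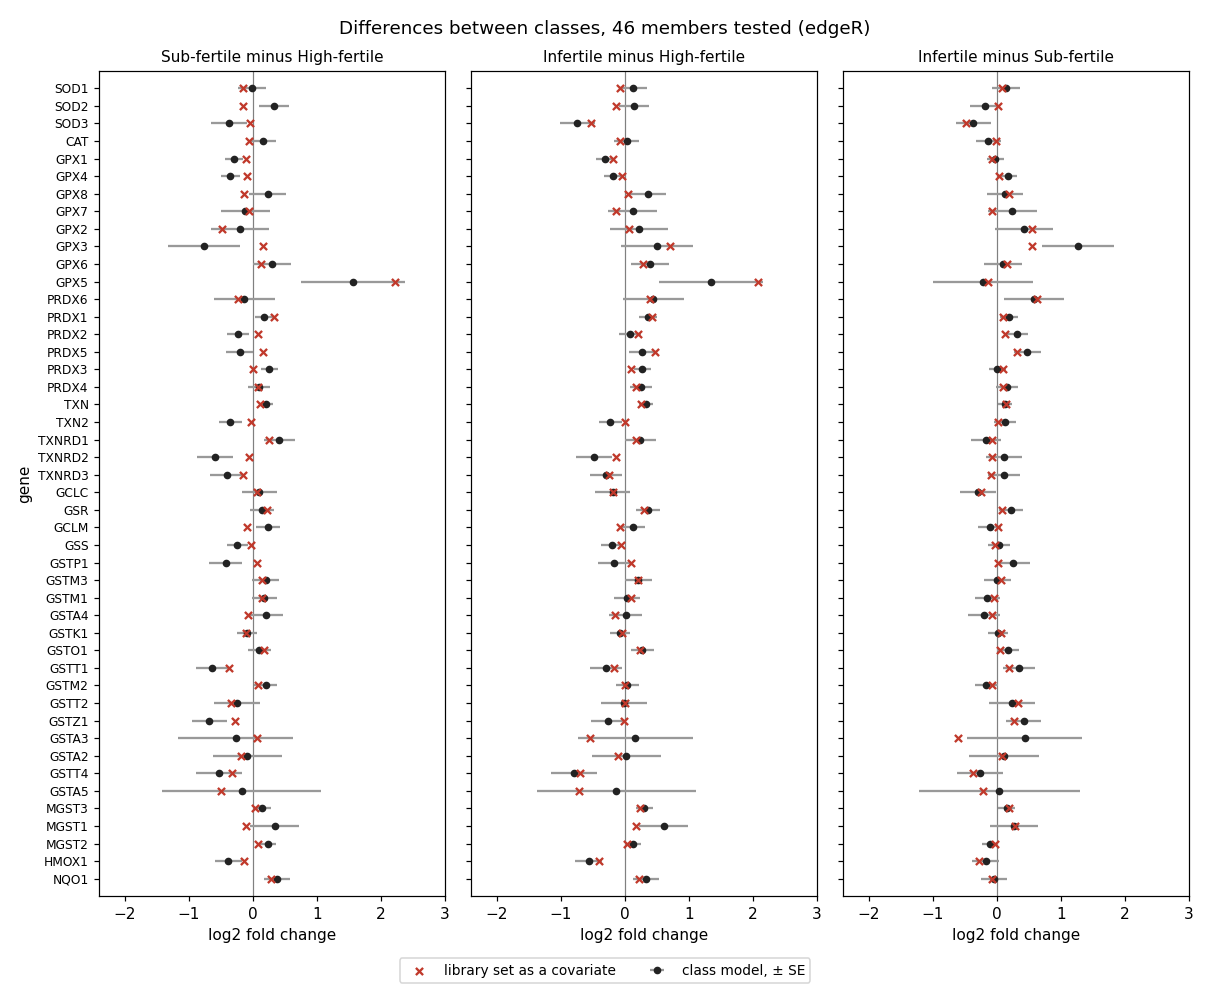
Log2 fold change of the 46 tested members in the 3 class comparisons; black points are the class model with bars of 1 SE, and red crosses the same difference with the library set as a covariate. In the left panel TXN2, TXNRD2 and GSTP1 lie at -0.35, -0.59 and -0.42 by class and at -0.03, -0.07 and 0.07 with the set in the model.

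Of the superoxide dismutases, SOD3, the form secreted into the extracellular matrix, was lower in value in the Infertile class. It was read at 54.2, 55.4, 67.4, 73.3 and 70.1 CPM in the High-fertile libraries, 58.2, 38.5, 40.3, 76.6 and 33.7 in the Sub-fertile libraries and 34.0, 36.0, 27.6, 68.9 and 24.98 in the Infertile libraries. The 5 High-fertile values were 54.2 CPM or more, while 4 of the 5 Infertile values lay below all of them and replicate 4 sat among the High-fertile ones. The log2 fold change of Infertile against High-fertile was -0.74 ± 0.28 (SE; edgeR unadjusted p 0.0166, adjusted p 0.439), -0.53 with the library set in the model and -0.38 within the 8-library set. Endothelial markers were lower in value in Infertile than High-fertile heifers for 7 of 8 genes, with summed levels of 753 to 1061 against 877 to 1611 CPM; the relation of that sum to SOD3 across heifers is given with the other relations. The cytosolic SOD1 averaged 73.8 ± 22.01 CPM in High-fertile, 73.2 ± 17.2 in Sub-fertile and 80.6 ± 20.4 in Infertile heifers (SD, n = 5), and the mitochondrial SOD2 84.1 ± 5.25 CPM in High-fertile, 106 ± 32.1 in Sub-fertile and 93.1 ± 29.3 in Infertile heifers. Catalase, the peroxisomal enzyme, averaged 208 ± 51.8 CPM in High-fertile, 233 ± 38.7 in Sub-fertile and 212 ± 53.7 in Infertile heifers, and neither it nor SOD1 or SOD2 reached an unadjusted p under 0.05 in any comparison.

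Both GPX1 and GPX4 had lower values in the Sub-fertile class than in the High-fertile one. GPX1 was read at 94.1, 96.3, 88.7, 81.3 and 115 CPM in the High-fertile libraries, 70.4, 71.3, 93.8, 88.0 and 63.8 in the Sub-fertile libraries and 77.9, 77.7, 69.0, 91.5 and 65.6 in the Infertile libraries. The Sub-fertile replicates 3 and 4 fell inside the High-fertile range and the other three lay beneath it. Its log2 fold change was -0.30 ± 0.13 for Sub-fertile and -0.32 ± 0.13 for Infertile heifers against High-fertile ones (edgeR adjusted p 0.360 and 0.444). With the set in the model these were -0.11 and -0.18.

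GPX4 was read at 61.6, 59.4, 56.3, 58.7 and 64.2 CPM in the High-fertile libraries, 44.9, 42.5, 47.8, 56.2 and 43.2 in the Sub-fertile libraries and 65.1, 67.4, 41.8, 50.9 and 39.6 in the Infertile libraries. Every Sub-fertile value lay below every High-fertile value, by a margin of less than 1 CPM at the nearest pair, and 5.07% of all genes separated these classes in the same way. GPX4's log2 fold change was -0.36 ± 0.15 (edgeR unadjusted p 0.0293, adjusted p 0.360) and -0.09 with the library set in the model. The 9 macrophage markers were all lower in value in Sub-fertile than High-fertile heifers. At an unadjusted p under 0.05 in edgeR 5 of them passed, against 13.7% of all genes. With the set in the model 0 passed (2.51% of all genes), and within the 8-library set 0 did (7.43%). Their median on the log2 scale was -0.66 by class, -0.38 with the set in the model and -0.48 within the 8-library set. The macrophage sum was 88.2 to 121 CPM in Sub-fertile against 119 to 251 CPM in High-fertile heifers. That sum was 80.5 to 221 CPM in Infertile heifers, where 8 of the 9 were lower than in High-fertile. The relation of the sum to GPX1 across heifers is given with the other relations, and its relation to GPX4 was not tested. All 6 tested B and plasma cell markers were also lower in Sub-fertile than High-fertile heifers. Each passed an unadjusted p under 0.05 in edgeR, against 13.7% of all genes. Their median log2 fold change was -3.32, and -2.31 with the set in the model. Their sum was 9.62 to 20.2 CPM in Sub-fertile against 54.4 to 221 CPM in High-fertile heifers. In Infertile heifers that sum was 17.5 to 245 CPM. There 5 of the 6 were lower than in High-fertile at that mark, against 11% of all genes. With the set in the model 4 of the 6 passed in Sub-fertile against High-fertile (2.51% of all genes). In Infertile against High-fertile 3 did (7.66%). Within the 8-library set the counts were 4 and 3 (7.43% and 4.39%). The part of these markers in the members' values was not tested.

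GPX3 showed the largest class difference among members tested at an unadjusted p under 0.05, and it was carried by 2 of the 5 Infertile libraries. It was read at 9.17, 5.24, 5.56, 7.88 and 6.45 CPM in the High-fertile libraries, 2.35, 5.40, 5.55, 3.03 and 3.83 in the Sub-fertile libraries and 25.9, 13.7, 2.47, 3.52 and 2.86 in the Infertile libraries. Infertile replicates 1 and 2 were the highest of all 15, and the other three Infertile values lay within the Sub-fertile range. The log2 fold change of Infertile against Sub-fertile was 1.27 ± 0.57 (edgeR adjusted p 0.998), 0.49 without Infertile replicate 1 and 0.55 with the set in the model. Infertile replicate 1 also had the highest summed smooth muscle markers, 23520 CPM against 562 to 11397 in the other 14, and the part of these in GPX3 was not tested.

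GPX5 had a wide scatter at a level close to the counting limit. It was read at 1.01, 0.0794, 0.286, 0.358 and 0.0407 CPM in the High-fertile libraries, 0.261, 0.347, 3.07, 0.672 and 0.865 in the Sub-fertile libraries and 0.566, 0.255, 1.02, 1.56 and 1.098 in the Infertile libraries. High-fertile replicates 2 and 5 held only a few counts and Sub-fertile replicate 3 stood alone at the top. The log2 fold changes against High-fertile were 1.56 ± 0.81 for Sub-fertile and 1.35 ± 0.81 for Infertile heifers (edgeR adjusted p 0.367 and 0.515), and 2.22 and 2.08 with the set in the model. The Sub-fertile difference was 0.61 without Sub-fertile replicate 3, 2.43 without High-fertile replicate 1 and 3.24 within the 8-library set. The Infertile difference was 2.21 without High-fertile replicate 1. The remaining peroxidases GPX2, GPX6, GPX7 and GPX8 had log2 fold changes between -0.21 and 0.42 over the 3 comparisons.

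All 6 peroxiredoxins were higher in value in Infertile than in High-fertile heifers and also than in Sub-fertile heifers, with medians of 0.27 and 0.25 on the log2 scale; against High-fertile, 3 were higher and 3 lower in Sub-fertile heifers. The first median was 0.30 with the set in the model and 0.22 within the 8-library set, and the second 0.12 and 0.02, with PRDX1 and PRDX6 at -0.12 and -0.13 within that set. Against High-fertile, PRDX2 was at -0.07 without Infertile replicate 2 and PRDX6 at -0.16 without Infertile replicate 5. Against Sub-fertile, PRDX4 was at -0.02 without Infertile replicate 2, and PRDX3 and PRDX6 at -0.08 and -0.03 without Infertile replicate 5. PRDX1 was read at 176, 183, 155, 123 and 145 CPM in the High-fertile libraries, 149.8, 157, 217, 186 and 174 in the Sub-fertile libraries and 177, 251, 192, 194 and 194 in the Infertile libraries. Infertile replicate 2 stood above the rest, 3 other Infertile values lay above the High-fertile range, and replicate 1 lay inside it. The log2 fold change of Infertile against High-fertile was 0.37 ± 0.14 (edgeR unadjusted p 0.0194, adjusted p 0.439), 0.43 with the set in the model and 0.28 without Infertile replicate 2. With the set in the model the same gene had a log2 fold change of 0.32 in Sub-fertile against High-fertile heifers (edgeR unadjusted p 0.0259).

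PRDX5 was read at 110.3, 118, 105, 103 and 98.7 CPM in the High-fertile libraries, 75.9, 66.2, 140.1, 104 and 79.1 in the Sub-fertile libraries and 126, 194, 89.7, 125 and 114 in the Infertile libraries. Its Sub-fertile values were split, with replicates 1, 2 and 5 below every High-fertile value, replicate 4 within their range and replicate 3 above it. Infertile against Sub-fertile gave PRDX5 a log2 fold change of 0.48 ± 0.21 (edgeR adjusted p 0.998), 0.29 without Infertile replicate 2, 0.31 with the set in the model and 0.04 within the 8-library set.

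PRDX6 varied over a wider range than the other peroxiredoxins. It was read at 420.3, 436, 305, 214 and 415 CPM in the High-fertile libraries, 212, 204, 695, 231 and 291 in the Sub-fertile libraries and 572, 203, 237, 269.7 and 1160.2 in the Infertile libraries. Infertile replicate 5, Sub-fertile replicate 3 and Infertile replicate 1 were the highest, and every class held values between 200 and 310 CPM. Its log2 fold change was 0.45 ± 0.48 for Infertile against High-fertile (edgeR adjusted p 0.696), 0.39 with the set in the model, 0.16 by limma-voom and -0.16 without Infertile replicate 5, so 1 library set its direction. PRDX2 was read at 185, 164, 150.2, 147 and 171 CPM in the High-fertile libraries, 144, 131, 148, 158 and 114 in the Sub-fertile libraries and 189, 244, 126, 179 and 128 in the Infertile libraries, and the classes overlapped. The mitochondrial PRDX3 averaged 72.7 ± 3.59 CPM in High-fertile, 87.0 ± 9.76 in Sub-fertile and 87.6 ± 18.4 in Infertile heifers (SD, n = 5), and PRDX4 of the endoplasmic reticulum 41.6 ± 7.10 CPM in High-fertile, 44.5 ± 6.74 in Sub-fertile and 49.5 ± 12.7 in Infertile heifers.

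TXN, the cytosolic thioredoxin that supplies the peroxiredoxins with electrons, had the lowest unadjusted p of the members. It was read at 51.3, 55.1, 56.0, 48.1 and 48.2 CPM in the High-fertile libraries, 61.0, 56.4, 59.7, 60.8 and 59.3 in the Sub-fertile libraries and 54.3, 61.7, 67.3, 59.3 and 81.6 in the Infertile libraries. The 5 Sub-fertile values sat just above the 5 High-fertile ones without overlap, while Infertile replicate 1 fell among the High-fertile values and replicate 5 was far above the rest. The log2 fold change of Infertile against High-fertile was 0.33 ± 0.11 (edgeR unadjusted p 0.00854, adjusted p 0.435), 0.26 with the set in the model and 0.12 within the 8-library set. For Sub-fertile against High-fertile it was 0.20 ± 0.11 (adjusted p 0.372 in edgeR) and 0.11 with the set in the model. TXN also had the smallest spread of all tested members.

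The other thioredoxin genes had values in different directions. TXNRD1, the cytosolic reductase that recharges TXN, averaged 146 ± 18.2 CPM in High-fertile, 194 ± 33.0 in Sub-fertile and 172 ± 62.4 in Infertile heifers (SD, n = 5), with Infertile replicate 2 lowest at 70.9 CPM. The mitochondrial pair TXN2 and TXNRD2 averaged 60.4 ± 3.08 CPM in High-fertile, 47.3 ± 13.4 in Sub-fertile and 51.7 ± 9.38 in Infertile heifers for TXN2, and 21.8 ± 2.62 CPM in High-fertile, 14.4 ± 5.50 in Sub-fertile and 15.6 ± 5.90 in Infertile heifers for TXNRD2. TXNRD3, a reductase best known from testis, averaged 14.8 ± 2.62 CPM in High-fertile, 11.1 ± 3.28 in Sub-fertile and 12.04 ± 4.35 in Infertile heifers. None of these 4 reached an unadjusted p under 0.05 by class in edgeR.

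Glutathione synthesis and recycling gave no class difference at an unadjusted p under 0.05 in edgeR for any of its 4 genes. GCLC and GCLM, the catalytic and modifier subunits of the rate-limiting ligase, averaged 68.6 ± 20.9 CPM in High-fertile, 73.8 ± 18.3 in Sub-fertile and 60.2 ± 20.5 in Infertile heifers for GCLC and 14.3 ± 1.66 CPM in High-fertile, 16.9 ± 3.32 in Sub-fertile and 15.6 ± 3.64 in Infertile heifers for GCLM (SD, n = 5). GSS, which completes the tripeptide, averaged 20.4 ± 2.29 CPM in High-fertile, 17.2 ± 4.47 in Sub-fertile and 17.6 ± 1.87 in Infertile heifers. GSR, which regenerates reduced glutathione, averaged 18.3 ± 3.23 CPM in High-fertile, 20.2 ± 0.585 in Sub-fertile and 23.6 ± 7.75 in Infertile heifers, and its Sub-fertile values agreed closely while Infertile replicate 2 reached 36.9 CPM.

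Of the 14 tested cytosolic transferases, a group in which the kappa enzyme GSTK1 of mitochondria and peroxisomes was counted, 5 were higher and 9 lower in Sub-fertile than in High-fertile heifers, and 7 were higher and 7 lower in Infertile ones. GSTT1, a theta-class enzyme, was read at 29.3, 28.6, 35.2, 30.7 and 48.8 CPM in the High-fertile libraries, 25.5, 22.3, 27.0, 16.0 and 19.8 in the Sub-fertile libraries and 33.0, 36.0, 13.1, 34.9 and 23.7 in the Infertile libraries. All Sub-fertile values lay below all High-fertile values, and the Infertile values spanned both. Its log2 fold change of Sub-fertile against High-fertile was -0.64 ± 0.25 (edgeR unadjusted p 0.0221, adjusted p 0.360), -0.37 with the set in the model and -0.75 within the 8-library set.

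GSTZ1, which isomerises an intermediate of tyrosine breakdown, was read at 19.2, 20.0, 36.8, 21.8 and 17.7 CPM in the High-fertile libraries, 8.93, 12.1, 19.9, 18.1 and 12.9 in the Sub-fertile libraries and 24.1, 26.5, 12.9, 18.4 and 14.3 in the Infertile libraries. High-fertile replicate 3 was the highest of all 15, and the Sub-fertile values of replicates 3 and 4 lay within the High-fertile range. Sub-fertile against High-fertile gave GSTZ1 a log2 fold change of -0.68 ± 0.27 (edgeR adjusted p 0.360), -0.45 without High-fertile replicate 3 and -0.28 with the set in the model.

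GSTT4, another theta-class gene, was read at 4.53, 5.40, 5.34, 6.35 and 4.88 CPM in the High-fertile libraries, 5.59, 3.66, 4.28, 1.59 and 3.23 in the Sub-fertile libraries and 3.46, 2.98, 1.18, 5.31 and 2.38 in the Infertile libraries. The High-fertile values were close together, and the Infertile ones were lower except in replicate 4. Infertile against High-fertile gave a log2 fold change of -0.79 ± 0.36 (edgeR adjusted p 0.450), -0.70 with the set in the model and -0.34 within the 8-library set. GSTP1, the most abundant transferase, was read at 138, 122, 114, 133 and 117 CPM in the High-fertile libraries, 65.6, 80.8, 111, 126 and 81.8 in the Sub-fertile libraries and 182, 130.4, 72.3, 111 and 60.8 in the Infertile libraries. Its 5 lowest values were the Sub-fertile replicates 1, 2, 5 and the Infertile replicates 3, 5, and Infertile replicate 1 was the highest. Its log2 fold changes against High-fertile were -0.42 ± 0.26 and -0.16 ± 0.26 for Sub-fertile and Infertile heifers, and 0.07 and 0.09 with the set in the model.

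GSTA3 and GSTA5, of the alpha class, were the most variable members. GSTA3, known for its part in steroid hormone synthesis, was read at 0.890, 2.80, 4.82, 1.45 and 1.75 CPM in the High-fertile libraries, 2.27, 0.787, 0.501, 5.38 and 0.751 in the Sub-fertile libraries and 0.168, 9.70, 0.974, 0.604 and 1.69 in the Infertile libraries. GSTA5 was read at 0.717, 0.238, 1.36, 0.0995 and 0.0610 CPM in the High-fertile libraries, 0.0522, 0, 0.0910, 1.33 and 0.683 in the Sub-fertile libraries and 0.251, 0.0425, 0.0453, 0.0389 and 1.92 in the Infertile libraries. High and low values of both genes occurred in every class. Some genes within the GSTA family, and some within the GSTM family, are close to each other, though no sequences were compared here. The labels do not say how reads matching several places were counted, so the split between members of each family is uncertain.

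The microsomal transferases were higher in value than in High-fertile heifers in both other classes for all 3 genes by class alone. With the set in the model MGST1 was at -0.11 in Sub-fertile against High-fertile (by class 0.34 ± 0.38) and at 0.18 in Infertile against High-fertile (by class 0.61 ± 0.38), and within the 8-library set MGST2 was at -0.01 in the latter comparison. MGST3, a membrane enzyme able to make leukotriene C4, was read at 44.9, 44.9, 43.4, 30.3 and 41.4 CPM in the High-fertile libraries, 53.7, 41.4, 42.4, 42.5 and 47.2 in the Sub-fertile libraries and 52.7, 41.7, 48.3, 49.2 and 61.1 in the Infertile libraries. High-fertile replicate 4 was the lowest of all 15, and Infertile replicate 2 fell inside the High-fertile range. Infertile against High-fertile gave a log2 fold change of 0.30 ± 0.13 (edgeR unadjusted p 0.0385, adjusted p 0.450), 0.23 with the set in the model and 0.21 without High-fertile replicate 4. MGST2 was read at 48.3, 67.9, 52.0, 58.2 and 52.9 CPM in the High-fertile libraries, 73.2, 71.0, 61.0, 59.0 and 63.4 in the Sub-fertile libraries and 67.7, 54.2, 65.9, 47.7 and 68.7 in the Infertile libraries, with overlap between all classes. MGST1 averaged 74.4 ± 25.7 CPM in High-fertile, 94.1 ± 22.7 in Sub-fertile and 113 ± 61.2 in Infertile heifers (SD, n = 5).

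In the same comparison of Infertile with High-fertile heifers, all 10 markers of ciliated epithelium were higher in value. Summed levels were 193 to 699 against 133 to 290 CPM. At an unadjusted p under 0.05 in edgeR 8 of the markers passed, against 11% of all genes. With the set in the model 2 passed (7.66% of all genes), and within the 8-library set 0 did (4.39%). The median log2 fold change of these markers was 1.12 by class, 0.93 with the set in the model and 0.68 within the 8-library set. Their part in the higher values of MGST3, PRDX1 and TXN was not tested. The neutrophil sum reached 193 CPM in Infertile replicate 2, against 5.19 to 34.5 in the other 14 libraries.

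HMOX1, heme oxygenase, which degrades heme and is a classic stress-response gene of macrophages and other cells, was read at 66.4, 63.7, 54.7, 42.8 and 56.4 CPM in the High-fertile libraries, 43.1, 42.7, 54.9, 43.9 and 32.9 in the Sub-fertile libraries and 62.0, 30.6, 30.7, 41.3 and 27.8 in the Infertile libraries. The High-fertile values were 42.8 CPM or more, and 4 of 5 Infertile values were below that, replicate 1 being the exception. Infertile against High-fertile gave -0.56 ± 0.21 on the log2 scale (edgeR unadjusted p 0.0184, adjusted p 0.439), -0.41 with the set in the model and -0.08 within the 8-library set. NQO1, the quinone reductase and another NRF2 target, averaged 23.4 ± 5.24 CPM in High-fertile, 30.4 ± 5.11 in Sub-fertile and 29.5 ± 7.68 in Infertile heifers (SD, n = 5), opposite in direction to HMOX1.

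**Figure D3:**
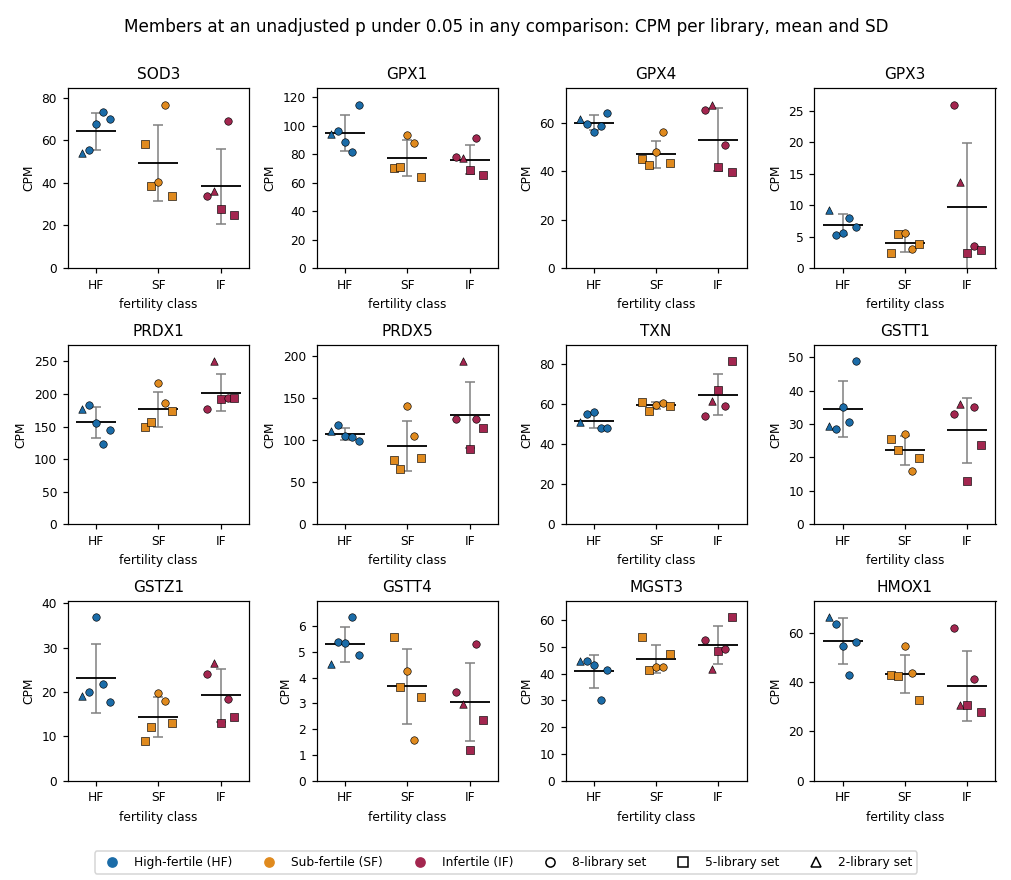
CPM of the 12 members at an unadjusted p under 0.05 in any class comparison, 1 point per library by class, with a line at the class mean and bars of 1 SD (n = 5); squares mark the 5-library set, circles the 8-library set and triangles the 2-library set. Only GPX4, TXN and GSTT1 separate Sub-fertile from High-fertile heifers without overlap, and the GPX3 panel is led by 1 Infertile library at 25.9 CPM.

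Several members differed between the sets of libraries. With class in the model, 13 of 46 members (28.3%) differed between the 5- and the 8-library set at an adjusted p under 0.05 in edgeR, against 30.7% of all genes (13.1% higher and 17.6% lower). The sets were drawn from expression in these same libraries, and the p-values between sets make no allowance for that, so they serve as description. GCLM, PRDX3, SOD1 and SOD2 were higher in the 5-library set. GPX1, GPX4, GSS, GSTP1, GSTZ1, PRDX2, PRDX5, TXN2 and TXNRD2 were lower. The values of 10 members did not overlap between the 2 sets, against 23.3% of all genes, so the members' share was close to the background in both counts.

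The mitochondrial thioredoxin pair separated these libraries without overlap. TXNRD2 averaged 9.97 ± 0.890 CPM in the 5-library set (SD, n = 5) and 21.5 ± 1.91 in the 8-library set (n = 8). It ranged from 8.66 to 11.1 CPM in those 5 libraries and from 18.1 to 24.7 in the other 10. The log2 difference was -1.07 ± 0.09 (SE; edgeR adjusted p 8.36e-06). TXN2 ranged from 36.5 to 43.1 CPM in the 5 libraries and from 57.5 to 63.9 in the other 10, a log2 difference of -0.61 ± 0.07 between the 5- and 8-library sets (edgeR adjusted p 3.61e-05). Both genes encode parts of the thioredoxin system of mitochondria, but the mitochondrial peroxidase they serve, PRDX3, went the other way. PRDX3 ranged from 87.2 to 108 CPM in the 5 libraries against 68.3 to 82.8 in the other 10, with a log2 difference of 0.37 ± 0.07 (edgeR adjusted p 0.00214), and SOD2, also mitochondrial, was higher by 0.59 ± 0.18 (edgeR adjusted p 0.0264).

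GSTP1 was at 60.8 to 81.8 CPM in the 5 libraries and 111 to 182 in the other 10, and GPX4 at 39.6 to 44.9 against 47.8 to 67.4. GPX1 was at 63.8 to 71.3 against 77.7 to 115 CPM, and GSTZ1 at 8.93 to 14.3 against 17.7 to 36.8. GCLM, the modifier subunit of glutathione synthesis, was at 17.4 to 21.7 CPM in the 5 libraries against 9.79 to 17.1 in the other 10. The remaining log2 differences between the 5- and 8-library sets were 0.53 ± 0.10 for SOD1, -0.37 ± 0.13 for GSS, -0.40 ± 0.09 for PRDX2 and -0.58 ± 0.13 for PRDX5 (edgeR adjusted p 0.00117, 0.0475, 0.00557 and 0.00423). GPX1, GPX4 and GSTZ1 are thus 3 of the 4 members at an unadjusted p under 0.05 in Sub-fertile against High-fertile heifers, a comparison with 3 Sub-fertile and 0 High-fertile libraries in the 5-library set. With the set in the model 2 members passed that mark there, GPX5 and PRDX1 (against 2.51% of all genes), and 3 did in Infertile against High-fertile, PRDX1, PRDX5 and TXN (7.66%), and PRDX5 alone did in Infertile against Sub-fertile (1.75%). Within the 8-library set the counts were 8, 3 and 4 members in the 3 comparisons, against 7.43%, 4.39% and 4.71% of all genes there. The sets are groups of libraries found in the data; what they stand for is not given in the labels.

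**Figure D4:**
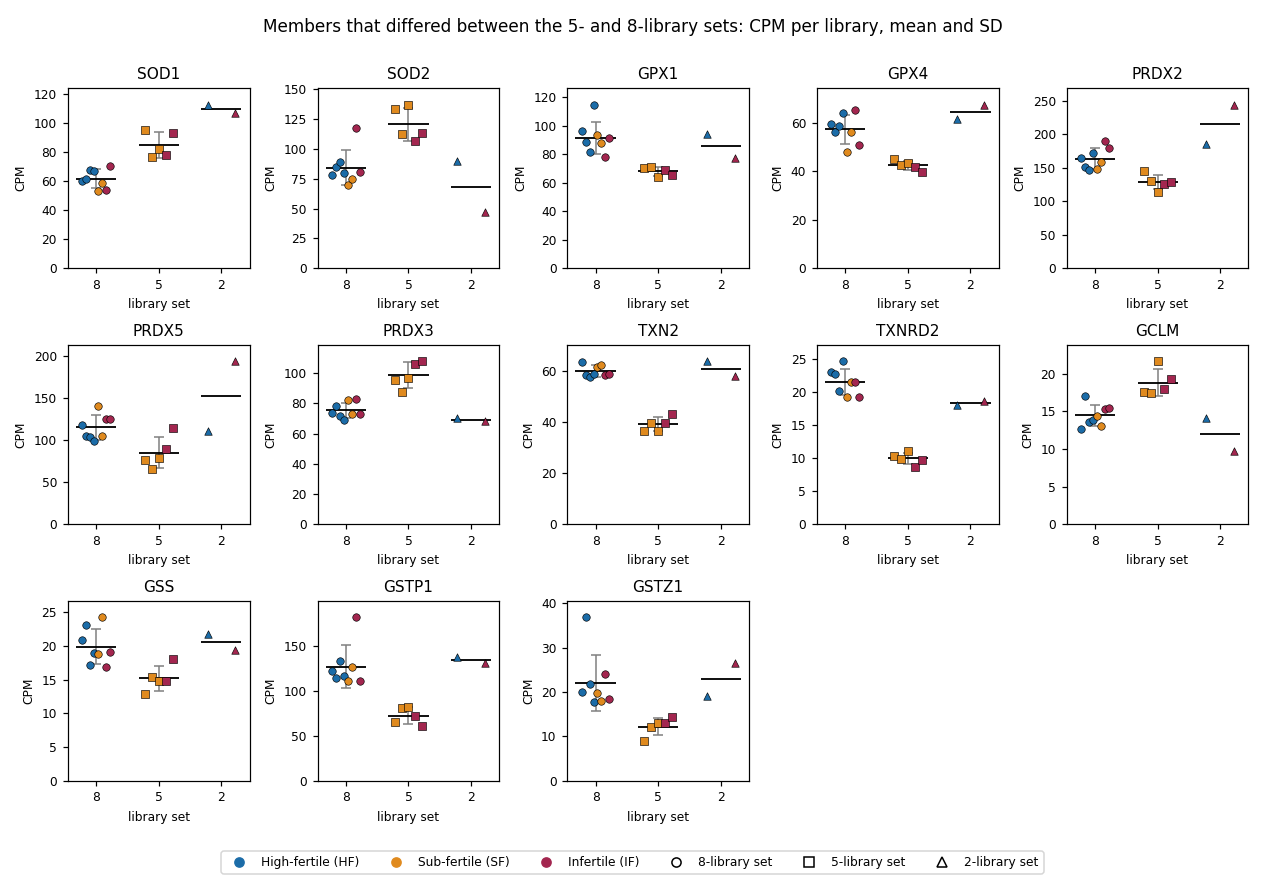
CPM of the 13 members that differed between the 5- and 8-library sets, 1 point per library, coloured by class, with a line at the mean and bars of 1 SD for the sets of 8 and 5. TXNRD2 lies between 8.66 and 11.1 CPM in the 5-library set and at 18.1 CPM or more in both other sets.

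The members differed widely in how much heifers of 1 class varied. As the pooled SD of log2 CPM within classes, GSTA5 at 1.90, GSTA3 at 1.51 and GPX5 at 1.26 were the most variable, at percentiles 98.7, 97.0 and 94.5 of the 19962 tested genes. TXN at 0.14, MGST2 at 0.19 and MGST3 at 0.20 were the steadiest, at percentiles 4.91, 11.7 and 13.6. The median percentile of the members was 45.03, and 25 of the 46 were below 50, so the group as a whole lay near the middle of all tested genes. Of the members, 34 had a highest library more than 2 times the lowest.

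Some members varied together, or with the markers of a cell type, across heifers. In total, 16 relations were computed on log2 values over 15 heifers, chosen after values were seen, with permutation tests of 100000 resamples and adjusted values over the 16. GPX7 varied with the sum of 8 stromal markers (collagens, DCN, LUM and others) with Pearson r = 0.970 and Spearman rho = 0.954, both at a permutation p of 1e-05, the smallest these resamples can give (adjusted 0.00016). It was 0.943 without the 2 libraries farthest from the median of the stromal sum, and 0.964 within the 8-library set by exact permutation (n = 8). GPX8, the other peroxidase of the endoplasmic reticulum, gave r = 0.684 and rho = 0.454 with the same sum (permutation p 0.00532 and 0.0898; adjusted 0.0106 and 0.16), r was 0.283 without the 2 farthest libraries, and within the 8-library set r was 0.740 and rho 0.619 (exact permutation p 0.0358 and 0.115; r's p adjusted over the 16 relations 0.115).

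GSTM1 and GSTM2 gave r = 0.794 and rho = 0.871 (permutation p 0.00012 and 7e-05; adjusted 0.00096 and 0.00056), 0.839 without the 2 farthest libraries and 0.926 within the 8-library set. As near copies they may share reads. GPX1 and the macrophage sum gave r = 0.705 and rho = 0.668 (permutation p 0.0031 and 0.00834; adjusted 0.00709 and 0.0334), and r was 0.773 without the 2 farthest. Within the 8-library set r was 0.832 and rho 0.524 (exact permutation p 0.023 and 0.197; r's p adjusted over the 16 relations 0.0922). HMOX1 and the macrophage sum gave lower values (r = 0.231, rho = 0.229; permutation p 0.408 and 0.413; adjusted 0.485 and 0.551). For TXN2 and TXNRD2 the libraries fell into separate clusters, so no pooled value is given. Within the 8-library set their r was 0.0751 and rho 0.0476 (exact permutation p 0.847 and 0.935; r's p adjusted over the 16 relations 0.903).

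Each of the following relations missed an adjusted p under 0.05 by r, by rho or by both. The ligase subunits GCLC and GCLM gave r = 0.221 and rho = -0.168 (permutation p 0.425 and 0.551; adjusted 0.485 and 0.629), and TXN and TXNRD1 r = 0.0569 and rho = 0.104 (permutation p 0.827 and 0.713; adjusted 0.882 and 0.76). NQO1 and HMOX1 gave r = -0.417 and rho = -0.389 (permutation p 0.122 and 0.152; adjusted 0.177 and 0.243). GSTA2 and GSTA3 gave r = 0.427 and rho = 0.354 (permutation p 0.112 and 0.195, adjusted 0.177 and 0.284). For SOD1 and CAT r was -0.243 and rho -0.186 (permutation p 0.38 and 0.507, adjusted 0.485 and 0.624). SOD3 and the endothelial sum gave r = 0.479 and rho = 0.479 (permutation p 0.0665 and 0.0734; adjusted 0.118 and 0.147). Within the 8-library set that relation gave r = 0.647 and rho = 0.786 (exact permutation p 0.0829 and 0.0279, r's p adjusted 0.166). For SOD3 and the smooth muscle sum r was -0.007 and rho 0.0286 (permutation p 0.98 and 0.923, adjusted 0.98 and 0.923). GPX7 and GPX8 gave r = 0.751 and rho = 0.546 (permutation p 0.00152 and 0.0373, adjusted 0.00424 and 0.0995). Their r was 0.758 without the 2 farthest libraries. Within the 8-library set r was 0.854 and rho 0.738 (exact permutation p 0.00647 and 0.0458, r's p adjusted 0.0345). GSTT1 and GSTT4 gave r = 0.759 and rho = 0.493 (permutation p 0.00132 and 0.0649; adjusted 0.00424 and 0.147) but r was 0.359 without the 2 farthest libraries. Within the 8-library set r was 0.753 and rho 0.286 (exact permutation p 0.0704 and 0.501; r's p adjusted over the 16 relations 0.161).

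**Figure D5:**
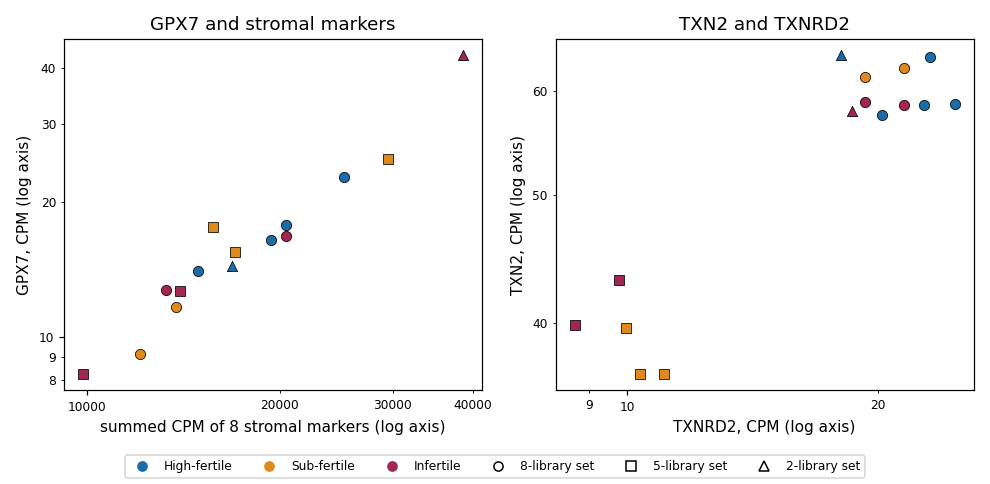
Left, GPX7 against the summed CPM of 8 stromal markers, and right, TXN2 against TXNRD2, both on log axes with 1 point per library, coloured by class and shaped by library set. The points on the left follow 1 line from Infertile replicate 5 at 8.22 CPM to Infertile replicate 2 at 42.8, while those on the right form separate groups, with the 5-library set at 8.66 to 11.1 CPM of TXNRD2.

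The wider pathway, taken from lists that do not hold the members, had no gene called in edgeR either (0 of 84 tested). TKT, a transketolase from the list of NADPH supply, averaged 163 ± 21.4 CPM in High-fertile, 119.9 ± 27.1 in Sub-fertile and 127 ± 33.2 in Infertile heifers (SD, n = 5), with a log2 fold change of -0.44 ± 0.19 in Sub-fertile against High-fertile (edgeR adjusted p 0.360) and -0.06 with the set in the model. From the same list, and chosen after their values were seen, ME1, the malic enzyme, and NNT, the mitochondrial transhydrogenase, were higher in value in Infertile than High-fertile heifers at an unadjusted p under 0.05 in edgeR, with log2 fold changes of 0.52 ± 0.23 and 0.34 ± 0.15 (adjusted p 0.450 and 0.450), and 0.45 and 0.25 with the set in the model. In that comparison 3 of the 8 genes of the list passed that mark, 2 higher and 1 lower, against 11% of all genes. With the set in the model 1 of the 8 passed (7.66% of all genes), and within the 8-library set 0 did (4.39%). Of the 9 regulators of NRF2, the transcription factor behind many of the members, only NFE2L2, which encodes it, had an unadjusted p under 0.05 in a class comparison: it averaged 238 ± 28.7 CPM in High-fertile, 294 ± 39.5 in Sub-fertile and 303 ± 71.6 in Infertile heifers, with 0.35 ± 0.16 in Infertile against High-fertile (edgeR adjusted p 0.450), 0.18 with the set in the model and -0.06 within the 8-library set. MAFK, its small Maf partner, averaged 33.2 ± 2.82 CPM in High-fertile, 22.1 ± 10.3 in Sub-fertile and 22.9 ± 6.91 in Infertile heifers.

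In heme and metal handling all 8 tested genes were lower in value in Sub-fertile than High-fertile heifers. Their median log2 fold change was -0.64, and -0.21 with the set in the model. At an unadjusted p under 0.05 in edgeR 3 of the 8 passed, against 13.7% of all genes (7.14% lower). With the set in the model 0 passed (2.51% of all genes), and within the 8-library set 0 did (7.43%). MT2A, a metallothionein that binds zinc and copper, averaged 9.36 ± 4.95 CPM in High-fertile, 5.06 ± 1.60 in Sub-fertile and 4.13 ± 1.21 in Infertile heifers (SD, n = 5), with -0.89 ± 0.35 and -1.18 ± 0.35 against High-fertile (edgeR adjusted p 0.360 and 0.435), and -0.62 and -1.01 with the set in the model. BLVRB, a biliverdin reductase, averaged 26.0 ± 3.82 CPM in High-fertile, 16.2 ± 6.52 in Sub-fertile and 21.4 ± 8.33 in Infertile heifers. Among 12 tested sources of superoxide and peroxide, XDH, xanthine dehydrogenase, averaged 184 ± 35.1 CPM in High-fertile, 154 ± 16.5 in Sub-fertile and 124 ± 24.5 in Infertile heifers, with -0.57 ± 0.16 in Infertile against High-fertile (edgeR adjusted p 0.435) and -0.65 with the set in the model. DUOX2, a peroxide-making oxidase of epithelia, was at 6.79 CPM in Infertile replicate 2 and at 0.396 CPM or less in the other 14 libraries.

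The remaining lists held fewer differences. None of the 11 tested NRF2 targets outside the members passed an unadjusted p under 0.05 in any comparison, and EPHX1, an epoxide hydrolase, averaged 73.9 ± 16.1 CPM in High-fertile, 100.3 ± 26.3 in Sub-fertile and 73.7 ± 23.7 in Infertile heifers (SD, n = 5), and FTL, the ferritin light chain, 423 ± 53.2 CPM in High-fertile, 319 ± 114 in Sub-fertile and 376 ± 92.7 in Infertile heifers. The same held for the 14 genes of glutathione turnover, where GGT5, which cleaves extracellular glutathione conjugates, averaged 296 ± 93.4 CPM in High-fertile, 159 ± 89.1 in Sub-fertile and 165 ± 106 in Infertile heifers and ESD 79.2 ± 6.50 CPM in High-fertile, 91.8 ± 9.15 in Sub-fertile and 94.3 ± 18.4 in Infertile heifers, and for the 11 of selenium supply, where SEPW1, a selenoprotein, averaged 71.4 ± 13.6 CPM in High-fertile, 57.5 ± 8.59 in Sub-fertile and 57.7 ± 13.5 in Infertile heifers and SCLY, selenocysteine lyase, 11.9 ± 3.21 CPM in High-fertile, 8.31 ± 2.93 in Sub-fertile and 9.10 ± 3.42 in Infertile heifers. Of the 11 glutaredoxins and methionine sulfoxide repair genes, SESN2, a stress-induced sestrin, was lower in Infertile than High-fertile heifers at an unadjusted p under 0.05 (-0.60 ± 0.24 on the log2 scale, edgeR adjusted p 0.439, and -0.46 with the set in the model). MSRB1, a methionine sulfoxide reductase, averaged 63.3 ± 29.6 CPM in High-fertile, 35.5 ± 16.7 in Sub-fertile and 57.9 ± 61.7 in Infertile heifers.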

How the data were processed

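RNA was extracted with an RNeasy kit and made into TruSeq stranded mRNA libraries, per the labels' protocols. FastQC, Subread, featureCounts and edgeR and the build UMD3.1 are named in the submitters' processing notes; the sources used do not give their versions, whether counting used strand, or how reads with several matches were counted. The authors deposited 1 table with a raw count per gene and library, and FPKM values beside it, per the file headers. Counts were tested as deposited. Genes were filtered with filterByExpr by class (19962 of 32671 kept), scaled by TMM and fitted with the quasi-likelihood test of edgeR 4.0.16 in R 4.3.3 (robust, 12 residual degrees of freedom) over all 15 libraries, with Benjamini-Hochberg adjustment over all tested genes and a threshold of 0.05. The SE of a log2 fold change is its size divided by the square root of F. FPKM served only to set levels of different genes side by side. Where CPM is given, libraries stand in the order of their replicate numbers, which follow accession order only. The labels do not say more of the replicates than that they are separate samples, and each was taken as 1 heifer. Each p-value therefore sets a class difference against the spread between these samples. DESeq2 1.42.0, limma-voom 3.58.1, other scalings and filters, the library set as a covariate and the removal of each library were alternatives. The fits and the set test were tested on simulated data. Every member at an unadjusted p under 0.05, the 5 highest by FPKM and the 3 most and least variable are given in full, the others in brief, and 2 genes by smallest p from each further list. The exception is a gene that is not reported here. Members, lists and library sets were chosen with earlier results of these data known. Symbols were matched to RefSeq names for 46 members, and 1 through a synonym. The limits given as 3 counts cover counting error only, while each SE includes the spread between libraries.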

Additional observations from a re-analysis of the deposited data

Results flagged for a closer look

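In 8 of 138 groups of 5 libraries (46 members in 3 classes), the highest or lowest library stood apart from the other 4 by Dixon's test at the 95% level; chance alone marks about 1 in 20 groups, or 6.9 of 138. In the High-fertile class, replicate 4 was low for GCLC (32.8 CPM against 70.6 to 86.2 in the other 4) and for MGST3 (30.3 CPM against 41.4 to 44.9), and high for PRDX4 (54.2 CPM against 37.4 to 40.0). Replicate 3 of that class was high for GSTZ1 (36.8 CPM against 17.7 to 21.8), and replicate 1 for SOD1 (113 CPM against 60.0 to 67.7). Infertile replicate 2 was high for PRDX1 (251 CPM against 177 to 194) and PRDX4 (71.6 CPM against 40.4 to 47.6). Sub-fertile replicate 4 was low for GSTM2 (16.7 CPM against 24.8 to 28.7).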

How the results depend on the processing

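No member was called under any of the 12 alternatives or with any of the 15 libraries left out (lowest adjusted p 0.146), and 72 of 3722 fold changes of members changed sign by more than 1 SE, 39 of them within the 8-library set, an alternative chosen after seeing the data. Genes called over the whole table were 0 in the reported fits. They were 19 (Sub-fertile against High-fertile), 34 (Infertile against High-fertile), 11 (Infertile against Sub-fertile) and 34 (any difference) by DESeq2, 1 in each of the last 3 by limma-voom, and 3 in the first without the 2-library set. Leaving out 1 library gave 0 to 3 in the first (3 without High-fertile replicate 1 or Infertile replicate 5, 1 without High-fertile replicate 3 or Infertile replicate 1) and 0 in the others. Members at an unadjusted p under 0.05 in Sub-fertile against High-fertile were 4 as reported, 2 with the set as a covariate, 8 within the 8-library set, 11 with only the 10 libraries compared and 1 to 8 with 1 library left out (1 without replicate 5 of the High-fertile class or replicate 2 of the Sub-fertile class, 2 without Sub-fertile replicate 1 or 5, 8 without Sub-fertile replicate 4). The median of the members was -0.066 (without High-fertile replicate 2) to 0.12 in that comparison, with 0.12 reached without High-fertile replicate 3. In Infertile against High-fertile the count was 7 as reported, 3 with the covariate, 3 within the 8-library set and 4 to 9 with 1 library left out (4 without Infertile replicate 5). In Infertile against Sub-fertile it was 2 as reported, 1 by limma-voom, 1 with the covariate, 0 without the 2-library set, 4 within the 8-library set, 0 with only the 10 libraries compared, and 0 to 4 with 1 left out (0 without Infertile replicate 2 or Sub-fertile replicate 1 or 5, 1 without Sub-fertile replicate 2 or 4, 4 without Infertile replicate 3). For any difference it was 2 as reported, 4 with RLE scaling, 1 with at least 1 CPM in 5 libraries, 5 by DESeq2, 4 without the 2-library set, 5 within the 8-library set and 0 to 6 with 1 left out (0 without High-fertile replicate 5, 6 without Sub-fertile replicate 3 or 4). The cause of these shifts was not tested. In Sub-fertile against High-fertile the share of all genes at that mark was 13.7% as reported, 2.51% with the covariate and 7.43% within the 8-library set. In the same order it was 11%, 7.66% and 4.39% for Infertile against High-fertile, and 2.63%, 1.75% and 4.71% for Infertile against Sub-fertile. For the other fits that share was not computed, so their member counts cannot be set against all genes. No paired analysis was possible because the labels give no replicate numbers, and those used here follow accession order. With 5 libraries a class, class and library set overlap in part: no High-fertile library is in the 5-library set, so differences against that class lean on few libraries once the set is in the model.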

Other observations

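The table lists 3 near copies of members under names with a suffix, which the choice of members left out. SOD2-2 averaged 15.8 ± 0.815 CPM in High-fertile, 12.3 ± 1.45 in Sub-fertile and 12.9 ± 4.51 in Infertile heifers (SD, n = 5). Its Sub-fertile values of 10.3 to 14.3 CPM lay below its High-fertile values of 14.5 to 16.7 without overlap, with a log2 fold change of -0.37 ± 0.20 (edgeR adjusted p 0.371), -0.34 with the set in the model and -0.35 within the 8-library set. SOD2 itself, which was higher in the 5-library set, had 0.33 ± 0.24 by class, -0.15 with the set in the model and -0.21 within the 8-library set, so the sign of the pair differed by class alone and not in the other 2. GSTM1-2 averaged 14.8 ± 3.29 CPM in High-fertile, 16.6 ± 1.81 in Sub-fertile and 13.4 ± 4.72 in Infertile heifers, and GSTA3-2 0.299 ± 0.156 CPM in High-fertile, 0.267 ± 0.119 in Sub-fertile and 0.467 ± 0.593 in Infertile heifers.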
